A study of Homo sapiens with 6 samples.

Results

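The 10 genes described here, SPRY1, SPRY2, SPRY4, SPRED1, SPRED2, SPRED3, ETV4, ETV5, PHLDA1 and ERRFI1, are feedback and output genes of ERK signaling outside the family of dual-specificity phosphatases. They were listed by name, with earlier results of these data known, and their symbols were matched to the Ensembl identifiers of the count tables, of which they make up 10 of 60671. Each of the 10 symbols matched 1 identifier, and 9 of the 10 genes passed the filter on low counts that left 17649 genes for testing, the exception being SPRY2. RNA-seq was performed on wild-type EndoC-βH1, an immortalized β cell line of human fetal origin, in 3 samples treated with the vehicle DMSO and 3 treated with 1 µM AZD7762, an inhibitor of the checkpoint kinases CHEK1 and CHEK2. Treatment covered a low-glucose preincubation (0.5 mM, 1 h) and a subsequent 1 h exposure to low (0.5 mM) or high (20 mM) glucose. Which of these 2 concentrations each library received is not given in the sources used here. The question was how acute treatment with AZD7762 changed the transcriptome during glucose-stimulated insulin secretion.

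The libraries held 29402440, 26921225 and 20486391 counts in DMSO replicates 1, 2 and 3 and 25494187, 21441444 and 21503144 in AZD7762 replicates 1, 2 and 3. At this depth, a floor of 3 counts corresponded to between 0.102 and 0.144 normalized CPM (the count of a gene relative to the scaled library total), a limit that covers counting error only. The labels number the replicates without saying whether they were separate cultures, so that the p-values measure the spread between these samples. The β cell markers fixed for this work were present, with INS at 1260 ± 351, PDX1 at 351 and NKX6-1 at 204 mean normalized CPM in DMSO samples (SD, n = 3). Of the 9 β cell markers, 1 was called, higher, beside 0.357% of all genes tested called in that direction. This gene, MAFA, which encodes a transcription factor of mature β cells, rose from 17.3 to 40.4 CPM (adjusted p = 0.000133, edgeR). The summed level of the 9 markers ranged from 5643 to 6727 CPM under DMSO and from 6305 to 6901 CPM with AZD7762. The 7 markers of other endocrine cells summed to between 287 and 322 CPM under DMSO and between 338 and 355 CPM with AZD7762, and the most abundant was SST at a mean of 234 CPM over the 6 samples. Of these 7, PPY had at most 3 counts in every sample. Among the 7 exocrine and duct markers, PRSS1, CELA3A, PNLIP and CTRB1 had no count in any sample, KRT19 was the most abundant at a mean of 26.6 CPM, and the sum ranged from 45.4 to 51.9 CPM under DMSO and from 50.3 to 56.4 CPM with AZD7762. The 7 matched markers of fibroblasts, endothelium and leukocytes summed to between 11.8 and 17.8 CPM in all 6 samples, most of it COL1A1 (mean 12.3 CPM), and VWF, CDH5 and CD68 had at most 3 counts in every sample. The sums of the other endocrine markers did not overlap between the groups, and their part in the results below was not tested.

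In the ERK cascade, receptor tyrosine kinases activate RAS through adaptor proteins, and RAS passes the signal through the kinases RAF, MEK and ERK. ERK activity induces the transcription of its own brakes, so that a signal is followed by its dampening. Sprouty proteins (SPRY) bind adaptors and other components below the receptor, whereas SPRED proteins bring the RAS GTPase-activating protein NF1 to the membrane. ETV4 and ETV5 are ETS transcription factors of the PEA3 group that carry the output of the pathway, PHLDA1 is a pleckstrin homology-like domain protein, and ERRFI1 (MIG6) binds and inhibits receptors of the EGFR family. Transcripts of this kind are in general short-lived, and their levels are widely used as a readout of pathway activity.

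The promoters of these genes were read first, because the data compare genes that are often regarded as a single output program. RefSeq sequences (build GRCh38.p14) were found for 8 of the 10 genes and 13 start sites, from 250 bases before to 50 bases after each start. ETV4 and ETV5 had none in the table. The 250 bases before the start of SPRY4, the member called over all genes tested, lie at chr5:142324248-142324497 on the minus strand. They and those before a start of SPRED3, at chr19:38389541-38389790 on the plus strand, are printed 5′ to 3′. The contrast is between a promoter without and one with the letters searched. Capitals mark matches to the 5 motifs.
SPRY4: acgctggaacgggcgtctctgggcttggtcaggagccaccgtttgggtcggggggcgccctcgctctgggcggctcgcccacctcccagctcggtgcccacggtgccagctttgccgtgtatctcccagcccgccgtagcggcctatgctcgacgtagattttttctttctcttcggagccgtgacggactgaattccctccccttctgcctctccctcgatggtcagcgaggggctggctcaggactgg
SPRED3: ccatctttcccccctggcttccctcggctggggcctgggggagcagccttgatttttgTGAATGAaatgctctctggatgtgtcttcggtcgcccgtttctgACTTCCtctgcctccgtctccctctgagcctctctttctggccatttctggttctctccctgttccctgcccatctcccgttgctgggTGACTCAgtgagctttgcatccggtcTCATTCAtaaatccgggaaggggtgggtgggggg
The motifs were GGAAGT (the letters of an ETS site), TGACTCA (AP-1), TGACGT (the first 6 letters of a CRE), and TGAATGA and TGAATGG (the first 7 letters of the octamers of the repressor CIC), each searched on both strands. The SPRY4 window held none of them, and neither did any window of SPRY1, SPRED1, PHLDA1 or ERRFI1, so that this was not particular to SPRY4. In the SPRED3 window, counted from the start site, TGAATGA lay at -192 and, on the minus strand, at -34, TGACTCA lay at -60, and GGAAGT lay on the minus strand at -148. Of the 13 windows, GGAAGT was in 2 (SPRY2 and SPRED3), TGACTCA in 2 (SPRED2 and SPRED3), TGACGT in 1 (SPRED2), TGAATGA in 1 (SPRED3) and TGAATGG in 0. Over all 35116 windows of this length in the table, the shares with these motifs were 22.8%, 4.95%, 7.98%, 4.01% and 3.20%, respectively. A match is a description of the letters and not a bound site.

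SPRY4 was 48.0% lower with AZD7762, and the other 8 genes tested did not pass the threshold over all genes. SPRY1 and PHLDA1 were lower and ERRFI1 higher in all 3 AZD7762 samples without passing it, and the 3 SPRED genes and both ETV genes had overlapping groups. With a threshold of 0.05 on the Benjamini-Hochberg adjusted p of edgeR's quasi-likelihood test, 1 of the 9 genes was called, beside 0.708% of all genes tested. It was called lower, beside 0.351% of all genes, and 0 members were called higher, beside 0.357%. An unadjusted p under 0.05 (edgeR) was reached by 4 of the 9, beside 9.68% of all genes, with 3 lower (background 5.25%) and 1 higher (background 4.43%). The groups did not overlap for these 4 genes, beside 15.0% of all genes tested, again with 3 lower (background 8.25%) and 1 higher (background 6.79%). These counts describe genes that were listed with results of the same samples known and are not independent evidence. By sign alone, 4 of the 9 were lower, beside 47.6% of all genes tested. The median log2 fold change (AZD7762 against DMSO) over the 9 genes was 0.04, and that over all genes tested was 0.0076.

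**Figure D1:**
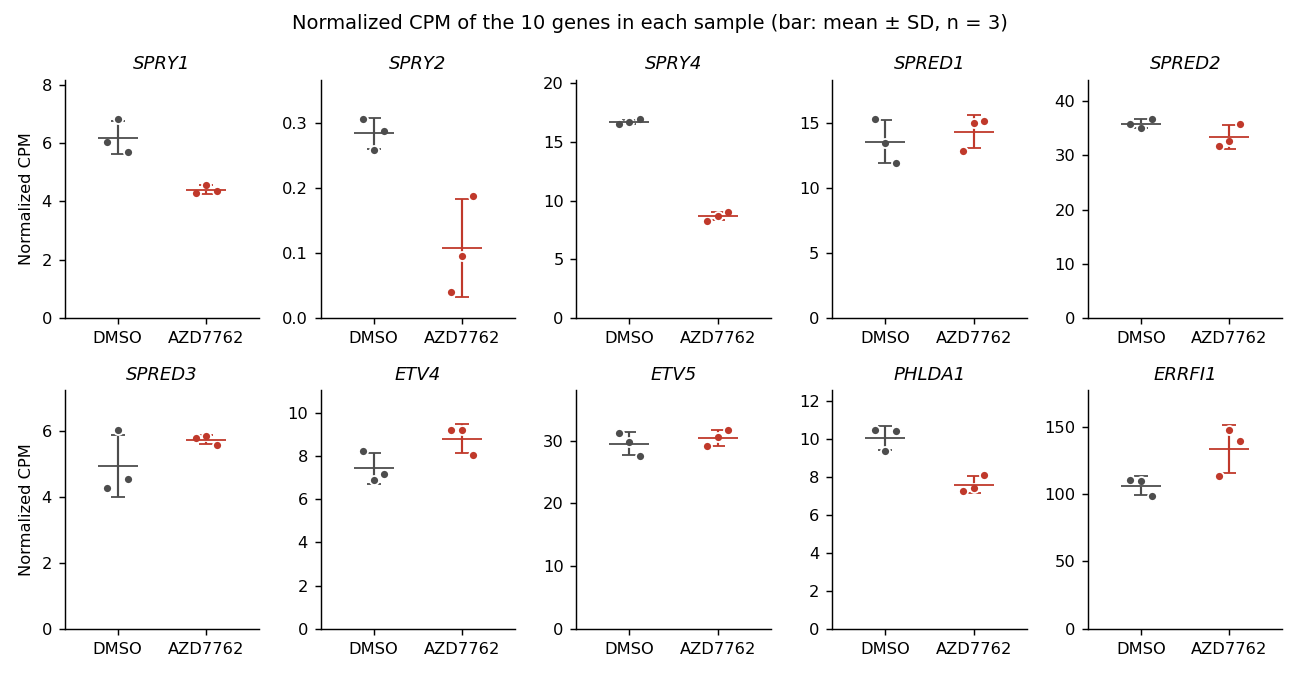
Normalized CPM (y axes, from 0) of each of the 10 genes in the 3 DMSO samples (grey points) and the 3 AZD7762 samples (red points), with the mean and SD of each group. The AZD7762 samples of SPRY4 lie between 8.31 and 9.05 CPM, all below the DMSO samples, whereas the groups of ETV5, SPRED1 and SPRED2 overlap.

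Among the Sprouty genes, SPRY4 fell and had the largest difference of the 9 genes tested. SPRY4 (ENSG00000187678, chromosome 5 of GRCh37, 141689992 to 141706020, minus strand, 6555 bases of exon) had 16.6, 16.7 and 16.9 normalized CPM in DMSO replicates 1, 2 and 3. With AZD7762 it had 8.31, 8.74 and 9.05 CPM. The DMSO samples lay within a narrow band and every AZD7762 sample was far below it. The mean fell from 16.7 ± 0.183 to 8.70 ± 0.373 CPM (SD, n = 3 in each group). The log2 fold change was -0.94 (95% interval -1.13 to -0.75, standard error 0.0872, adjusted p = 7.76e-05, edgeR). The counts behind these values were 489, 454 and 353 with DMSO and 209, 184 and 193 with AZD7762. By p, SPRY4 ranked 27 of the 17649 genes tested, and by the size of its log2 fold change 91. It was called under each of the 17 alternatives tried, with log2 fold changes between -0.98 and -0.92. Its antisense gene SPRY4-AS1 shares no exon with it and had between 0.119 and 0.240 CPM in the 6 samples. In bulk samples, fewer cells that express a gene and less of its RNA per cell cannot be told apart.

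SPRY1 (ENSG00000164056, chromosome 4, 124317950 to 124324915, plus strand) had 6.03, 6.80 and 5.70 CPM under DMSO and 4.29, 4.56 and 4.36 CPM with AZD7762. All 3 AZD7762 samples were below all 3 DMSO samples. The means were 6.18 ± 0.566 and 4.41 ± 0.140 CPM (SD, n = 3 in each group), with a log2 difference of -0.49 (95% interval -0.75 to -0.23, standard error 0.121, adjusted p = 0.124, edgeR). SPRY1 did not pass the threshold over all genes, and its unadjusted p was 0.00148 in edgeR's test. The log2 ratio of SPRY4 to SPRY1 counts was 1.46, 1.29 and 1.57 in the DMSO samples and 0.95, 0.94 and 1.05 in the AZD7762 samples, a comparison chosen after the values were seen and given without a test.

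SPRY2 (ENSG00000136158, chromosome 13, 80910111 to 80915261, minus strand), the best studied Sprouty gene in many other cells, was close to the floor of detection here. It had 9, 7 and 6 counts with DMSO and 1, 2 and 4 counts with AZD7762. In CPM, the DMSO samples had 0.305, 0.258 and 0.288, all above the floor of their library. The AZD7762 samples had 0.0398, 0.0950 and 0.188, of which only replicate 3 exceeded the floor. Pooled over the samples, 7 counts against 22 gave a ratio of 0.366 (exact 95% counting interval 0.132 to 0.886), which covers counting error and not the spread between samples. The gene was below the filter and was not tested.

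The SPRED genes showed no change that could be separated from the replicate spread. SPRED2 (ENSG00000198369, chromosome 2, 65537985 to 65659771, minus strand) had 35.8, 34.9 and 36.6 CPM under DMSO and 31.6, 32.6 and 35.8 CPM with AZD7762. Its log2 fold change was -0.10 (95% interval -0.26 to 0.052, adjusted p = 0.695, edgeR), and AZD7762 replicate 3 lay among the DMSO samples. The log2 fold change of SPRED2 was -0.15 without AZD7762 replicate 3 and -0.071 without AZD7762 replicate 1, and was called in neither case. SPRED1 (ENSG00000166068, chromosome 15, 38545037 to 38649450, plus strand) had 15.3, 13.5 and 11.98 CPM under DMSO and 12.9, 15.0 and 15.2 CPM with AZD7762, so that each group spanned most of the other. Its log2 fold change was 0.07 (95% interval -0.17 to 0.30, adjusted p = 0.886, edgeR). SPRED3 (ENSG00000188766, chromosome 19, 38879061 to 38890227, plus strand) was the lowest of the SPRED genes, at 4.27, 6.03 and 4.55 CPM under DMSO and 5.81, 5.85 and 5.58 CPM with AZD7762. A single DMSO sample, replicate 2, exceeded all AZD7762 samples, and the log2 fold change was 0.21 (95% interval -0.098 to 0.52, adjusted p = 0.681, edgeR). This value rested on single libraries, at 0.10 without DMSO replicate 1 and 0.38 without DMSO replicate 2, and was called in neither case. These intervals exclude a fall as large as that of SPRY4 for all 3 SPRED genes.

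The ETS factors ETV5 and ETV4 did not pass the threshold either. ETV5 (ENSG00000244405, chromosome 3, 185764103 to 185828107, minus strand) had 31.2, 29.8 and 27.6 CPM under DMSO and 29.1, 30.6 and 31.7 CPM with AZD7762. The groups overlapped, with DMSO replicate 3 below every AZD7762 sample, and the log2 fold change was 0.04 (95% interval -0.12 to 0.20, adjusted p = 0.905, edgeR). Of its exon length, 2.84% overlaps DGKG on the same strand, which had 67.8 ± 2.74 and 68.5 ± 4.08 CPM (SD, n = 3 in each group). ETV4 (ENSG00000175832, chromosome 17, 41605212 to 41656988, minus strand) had 8.23, 6.88 and 7.14 CPM under DMSO and 9.18, 9.17 and 8.02 CPM with AZD7762. DMSO replicate 1 lay above AZD7762 replicate 3, so that the groups overlapped. The log2 fold change was 0.24 (95% interval -0.00095 to 0.49, unadjusted p = 0.0508, adjusted p = 0.518, edgeR). Of its exon length, 1.93% overlaps DHX8 on the opposite strand, which had a log2 difference of 0.07 and was not called.

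PHLDA1 and ERRFI1 differed in opposite directions, and both missed the threshold over all genes. PHLDA1 (ENSG00000139289, chromosome 12, 76419227 to 76425556, minus strand) had 10.5, 9.34 and 10.4 CPM under DMSO and 7.28, 7.41 and 8.11 CPM with AZD7762. Every AZD7762 sample was below every DMSO sample. The means were 10.1 ± 0.629 and 7.60 ± 0.449 CPM (SD, n = 3 in each group), with a log2 difference of -0.41 (95% interval -0.63 to -0.18, unadjusted p = 0.00178, adjusted p = 0.135, edgeR). Of its exon length, 9.35% overlaps PHLDA1-AS1 on the opposite strand, which had no count in any sample. ERRFI1 (ENSG00000116285, chromosome 1, 8064464 to 8086369, minus strand) was the most abundant of the 10 genes. It had 111, 110 and 98.4 CPM under DMSO and 113, 147 and 139 CPM with AZD7762. The groups did not overlap, but AZD7762 replicate 1 was only slightly above DMSO replicates 1 and 2. Of its exon length, 3.71% overlaps ENSG00000284747 on the opposite strand, which had between 0 and 4 counts in each sample. The log2 fold change of ERRFI1 was 0.32 (95% interval 0.13 to 0.52, unadjusted p = 0.00347, adjusted p = 0.201, edgeR). Without AZD7762 replicate 1, ERRFI1 passed the threshold at a log2 difference of 0.42 (adjusted p = 0.0314, edgeR). It passed in no other fit that left out a single sample, and was at 0.24 without AZD7762 replicate 2 (adjusted p = 0.465, edgeR).

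**Figure D2:**
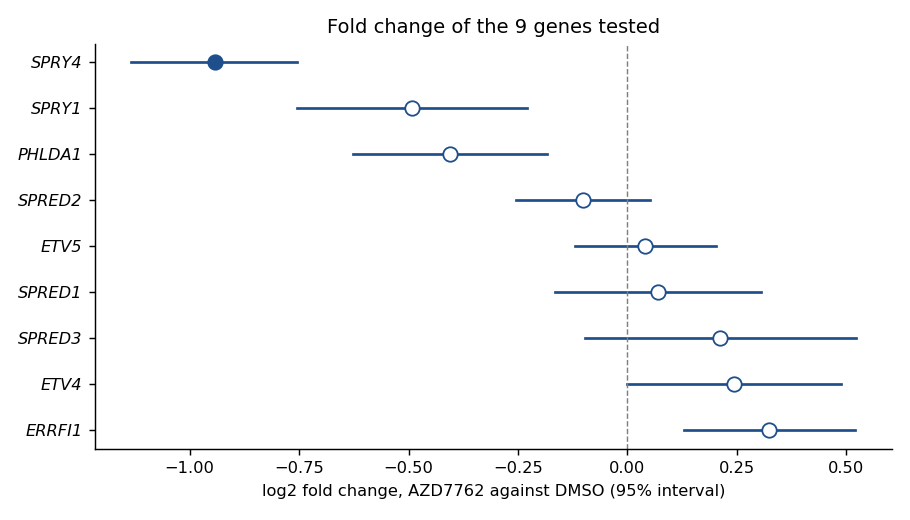
Log2 fold change of AZD7762 against DMSO (x axis) of the 9 genes tested, with 95% intervals from edgeR's quasi-likelihood fit (n = 3 in each group). The filled point, SPRY4 at -0.94, is the gene called over all genes tested, and the intervals of SPRY1 and PHLDA1 lie below 0 and that of ERRFI1 above 0 without a call.

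The balance between paralogs was also compared within each library, since a ratio of counts in a library does not depend on its scaling. For none of the 5 pairs did the exact two-sided permutation test give a p under 0.2, where the smallest p that 3 samples against 3 allow is 0.1. The log2 ratio of SPRED2 to SPRED1 was 1.40 ± 0.193 under DMSO and 1.22 ± 0.0906 under AZD7762 (SD, n = 3 in each group, exact permutation p = 0.3, adjusted p = 0.5 over the 5 pairs). The difference in this ratio, -0.18, was -0.081 without DMSO replicate 3 and -0.27 without DMSO replicate 1. The log2 ratio of ETV4 to ETV5 was -1.99 ± 0.103 under DMSO and -1.79 ± 0.166 under AZD7762 (SD, n = 3 in each group, exact permutation p = 0.3, adjusted p = 0.5). The log2 ratio of SPRED3 to SPRED1 differed by 0.15 (n = 3 in each group, exact permutation p = 0.6, adjusted p = 0.6), with a reversal to -0.038 without DMSO replicate 1 and a value of 0.30 without DMSO replicate 2. The log2 ratios of SPRY1 and SPRY4 to SPRY2 differed by 0.92 and 0.46 (n = 3 in each group, exact permutation p = 0.2 and 0.5, adjusted p = 0.5 and 0.6) and rest on the few counts of SPRY2. Without AZD7762 replicate 1, in which SPRY2 had 1 count, these differences were 0.47 and 0.025, and without AZD7762 replicate 3 they were 1.37 and 0.87.

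Levels were compared between the genes only per length, as normalized CPM per kb of exon. In DMSO samples, ERRFI1 was highest at 25.4 ± 1.64 CPM per kb (SD, n = 3). It was followed by SPRED2 at 6.50 ± 0.148, ETV5 at 5.12 ± 0.315 and SPRY4 at 2.55 ± 0.0280 CPM per kb (SD, n = 3). The ranges of these genes did not overlap, and that of SPRY4 lay above that of the next gene. ETV4 (2.11), SPRED1 (1.75), PHLDA1 (1.70) and SPRY1 (1.56) formed a run in which each range overlapped that of its neighbor. SPRED3 (0.844) and SPRY2 (0.0882) were lowest, each apart from the gene above it. Among SPRY1, SPRY2 and SPRY4, SPRY4 was thus the leading gene in vehicle-treated cells. SPRY3, which belongs to the list of brakes described below, had 1.31 ± 0.535 CPM under DMSO (SD, n = 3) and was not placed in this order. With AZD7762 it dropped from the fourth to the sixth place, at 1.33 ± 0.0569 CPM per kb (SD, n = 3), below ETV4 at 2.50 and SPRED1 at 1.85 and with a range that overlapped that of PHLDA1, whereas the order of the other genes was kept. With the length of the longest transcript in place of all exons, 5 of the 10 genes kept their place, and SPRY4 and ETV4 changed places.

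**Figure D3:**
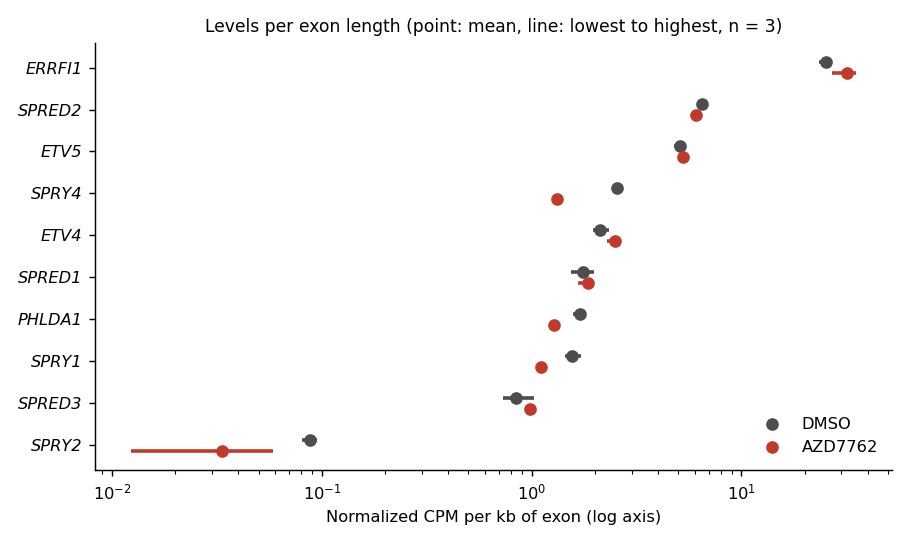
Level per kb of exon (x axis, log scale) of the 10 genes in DMSO samples (grey) and AZD7762 samples (red), as the mean (point) and the lowest to highest sample (line, n = 3). ERRFI1 leads at 25.4 CPM per kb, SPRY2 is lowest at 0.0882, and SPRY4 is the gene whose groups stand furthest apart among those well above the floor.

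Other genes of the pathway were taken from 5 lists grouped by role, all written with earlier results of these samples known, so that their counts are descriptions. Of 21 genes of the cascade (adaptors, RAS, RAF, MEK, ERK and scaffolds), 21 were tested and 0 were called by edgeR's quasi-likelihood test or any other test run. An unadjusted p under 0.05 was reached by 2 of the 21 (edgeR), both higher, beside 9.68% of all genes tested (4.43% higher), so that the count is at the background. One of them, MAPK3, which encodes the kinase ERK1 and was named after its values were seen, had 83.7 ± 3.87 CPM under DMSO and 92.5 ± 4.76 CPM with AZD7762 (SD, n = 3 in each group, log2 fold change 0.15, adjusted p = 0.481, edgeR). The other, HRAS, had 39.4 ± 1.87 and 44.7 ± 3.68 CPM, respectively, with overlapping groups (SD, n = 3 in each group, log2 fold change 0.18, adjusted p = 0.460, edgeR). The median log2 fold change of the list was 0.0030. FRS3, an adaptor of FGF receptors, went from 7.85 to 6.72 CPM (log2 fold change -0.22) and MAP2K2, which encodes the kinase MEK2, from 43.4 to 49.2 CPM (0.19), the 2 largest differences in the list. Of the 14 RAS GTPase-activating proteins and other brakes or partners, 13 were tested, 0 were called by any test run, and 1 had an unadjusted p under 0.05 (edgeR), beside 9.68% of all genes tested, which is again no more than the background. This gene, RASA2, which encodes a RAS GTPase-activating protein, had 14.4 ± 1.15 CPM under DMSO and 11.9 ± 0.813 CPM with AZD7762 (SD, n = 3 in each group, log2 fold change -0.27, adjusted p = 0.363, edgeR). LZTR1, an adaptor for the degradation of RAS proteins, had a log2 difference of 0.19 (adjusted p = 0.563, edgeR). NF1, the partner of the SPRED proteins, named for that role, had 202 ± 12.1 and 200 ± 29.0 CPM (SD, n = 3 in each group).

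Of 27 receptor tyrosine kinases and ligands, 16 were tested, 0 were called by any test run, and 2 had an unadjusted p under 0.05 (edgeR), both lower, beside 9.68% of all genes tested (5.25% lower). With so few genes, this count is near the background. Both genes, FGF2 and FGF18, encode ligands of FGF receptors. FGF2 had 7.41, 7.76 and 7.57 CPM under DMSO and 6.52, 6.04 and 6.33 CPM with AZD7762 (log2 fold change -0.27, adjusted p = 0.424, edgeR). FGF18 had 3.72, 3.27 and 3.69 CPM under DMSO and 2.19, 2.66 and 3.33 CPM with AZD7762 (log2 fold change -0.39, adjusted p = 0.476, edgeR), and its groups overlapped. Among the receptors that ERRFI1 inhibits, named after their values were seen, EGFR had between 0 and 4 counts in each sample, ERBB2 had 39.0 ± 0.350 and 39.6 ± 3.72 CPM, and ERBB3 had 22.9 ± 0.483 and 23.2 ± 1.08 CPM (SD, n = 3 in each group). ERRFI1 transcripts were abundant in libraries in which those of EGFR were near the floor of 3 counts.

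Of 13 other ETS factors and repressors, all were tested and 1 was called, higher, beside 0.357% of all genes tested called in that direction. ETS2, an ETS factor that ERK phosphorylates, had 41.9, 41.2 and 40.3 CPM under DMSO and 63.0, 72.4 and 71.4 CPM with AZD7762. All AZD7762 samples were well above the DMSO samples, and the log2 fold change was 0.74 (SE 0.0686, adjusted p = 7.76e-05, edgeR). ERF, an ETS repressor that ERK inactivates, went from 13.1 ± 2.96 to 10.7 ± 1.45 CPM (SD, n = 3 in each group, log2 fold change -0.29, adjusted p = 0.582, edgeR), and ELK3 had a log2 difference of -0.23 at about 1 CPM. Named after their values were seen, ETV1, the remaining PEA3 factor, had 67.0 ± 2.62 and 65.3 ± 1.47 CPM, and CIC, which represses ETV4, ETV5 and Sprouty genes, had 89.7 ± 25.9 and 91.8 ± 13.3 CPM (SD, n = 3 in each group). The median of this list was -0.04.

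The list of 25 other genes known to rise with ERK activity had 21 genes tested, of which 9 were called, 5 higher and 4 lower, beside 0.708% of all genes tested. The median log2 fold change was 0.06, with members that moved far in both directions. FOS rose from 11.03 ± 1.77 to 84.3 ± 4.62 CPM (SD, n = 3 in each group, log2 fold change 2.92, adjusted p = 4.04e-09, edgeR). The other genes that rose were DUSP4, MYC, ARC and EGR1, at log2 fold changes of 1.79, 1.71, 1.39 and 1.04. FOS, MYC and EGR1 encode transcription factors of the immediate early response, DUSP4 a phosphatase of MAP kinases in the nucleus, and ARC a protein of neuronal activity. The genes that fell were MAFF, DUSP6, KLF6 and TRIB1, at log2 fold changes of -1.35, -0.72, -0.54 and -0.51. DUSP6 encodes the cytoplasmic phosphatase of ERK, and it had 23.5, 24.7 and 18.6 CPM under DMSO and 12.9, 14.2 and 13.7 CPM with AZD7762 (adjusted p = 0.00508, edgeR). DUSP4 in the same libraries had 69.1, 67.4 and 69.7 CPM under DMSO and 205, 251 and 257 CPM with AZD7762 (adjusted p = 6.38e-08, edgeR). SPRY4 and DUSP6 thus fell in the samples in which DUSP4 and FOS rose. Beyond the called genes, EPHA2, a receptor kinase, had a log2 difference of -1.17 at 2.05 CPM with DMSO (adjusted p = 0.160, edgeR), and EGR2 one of 0.81 at 1.83 CPM (adjusted p = 0.220, edgeR).

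**Figure D4:**
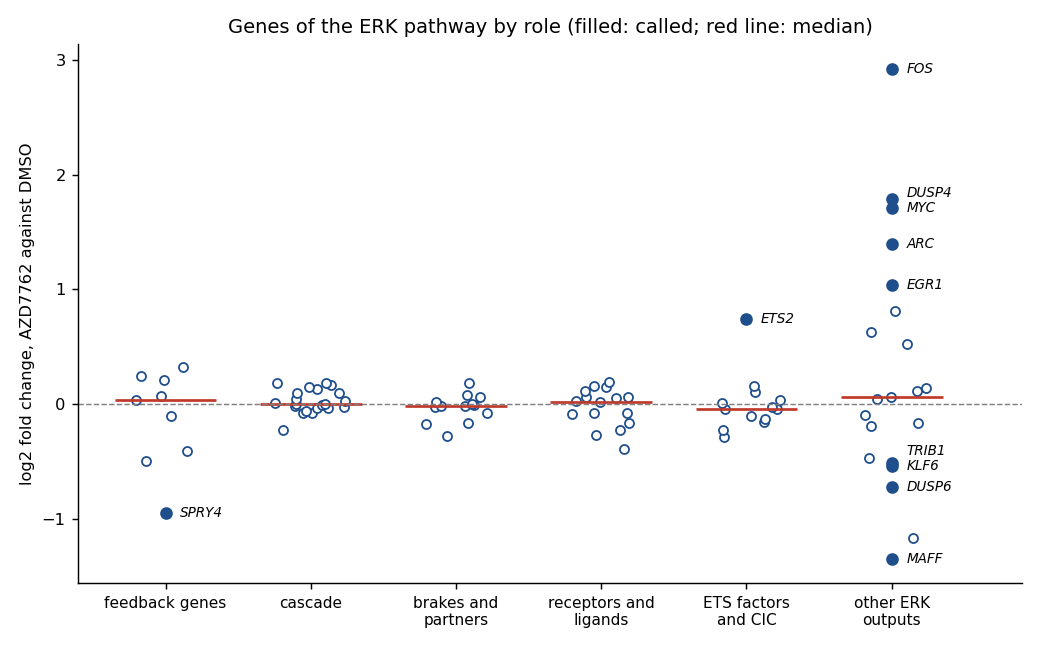
Log2 fold change of AZD7762 against DMSO (y axis) for each tested gene of the feedback genes and of the 5 pathway lists, with called genes filled and named and the median of each list as a red line. The cascade, brake and receptor lists hold no called gene, whereas the other ERK outputs range from -1.35 (MAFF) to 2.92 (FOS).

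The genes whose pattern over the 6 samples was most like that of SPRY4 were ranked by Pearson's r of log2 CPM among 13778 genes outside the lists. These were DDIT3 (r = 0.998), CADM3-AS1 (r = 0.998) and PHTF1 (r = 0.998). DDIT3, a transcription factor of the integrated stress response, fell from 29.6 to 14.8 CPM (adjusted p = 2.10e-05, edgeR). CADM3-AS1 and PHTF1 had log2 fold changes of -0.48 and -0.18 and were not called. The ranking covers 13778 genes and not all of the 17649 tested. The 6 points fall into 2 separate groups for SPRY4, and r is given as a description without a p.

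Libraries of the same group differed along GC content. For the tenth of genes richest in GC, the median deviation from the mean over samples was -0.11, -0.18 and 0.19 on the log2 scale in DMSO replicates 1, 2 and 3 and 0.11, -0.11 and 0.13 in AZD7762 replicates 1, 2 and 3. The exon GC content of the members ranged from 36.5% in SPRED1 to 60.1% in ETV4, and that of SPRY4 was 52.5%. When trends by GC content and length were removed from each library, the log2 fold change of SPRY4 was -0.96 (adjusted p = 3.40e-06, edgeR), and that of ERRFI1 was 0.35 with an adjusted p of 0.0297, which was then past the threshold. That of ETV4 shrank from 0.24 to 0.16 (unadjusted p = 0.172, edgeR), that of SPRED3 from 0.21 to 0.16 and that of PHLDA1 from -0.41 to -0.37. The other tested members had larger differences than in the fit reported here.

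**Figure D5:**
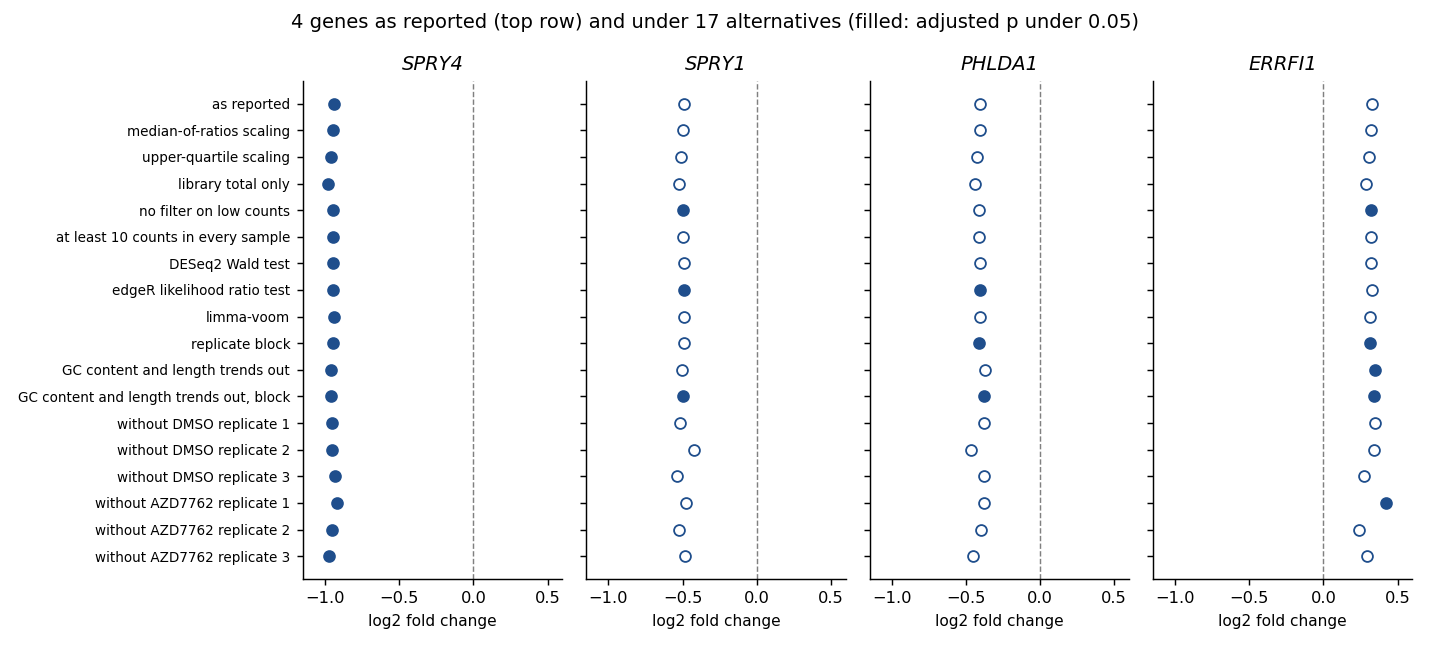
Log2 fold change (x axes) of SPRY4, SPRY1, PHLDA1 and ERRFI1 in the fit reported here (top row) and under 17 alternatives, with filled points where the adjusted p was under 0.05. SPRY4 is filled in every row, and SPRY1, PHLDA1 and ERRFI1 keep their direction in every row and are filled in 3, 3 and 5 of the 17 alternatives.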

How the data were processed

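EndoC-βH1 samples were grouped by treatment from their titles. Per the labels and the study's methods, the authors checked reads with FastQC (0.10.1), trimmed them with cutadapt (1.18), aligned them to GRCh37 and made raw counts with HTSeq-count. The aligner and the strand setting are not given in the sources used here, and libraries came from either a stranded or an unstranded kit. The deposited values are these counts, without scaling. Positions, exon lengths and GC content were taken by identifier from a GRCh37 annotation that holds 58646 of the 60671 identifiers and whose release differs from that of the files.

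The software was DESeq2 (1.42.0), limma (3.58.1) and edgeR (4.0.16), run in R (4.3.3). Genes passing filterByExpr were scaled with TMM factors and tested by edgeR's quasi-likelihood test (two-sided, Benjamini-Hochberg over 17649 genes, threshold 0.05). Normalized CPM is the count divided by the scaled library total. The fits were tested on simulated data. The simulated counts held no trend by GC content and no replicate structure, and the outcome is not given here. The protein comparison that had been planned was not run. The members and lists were chosen with earlier results of these data known. Named genes are the members, all called genes of the 5 pathway lists, the 2 largest uncalled differences in each, the 3 genes most like SPRY4 and genes that share exon bases with a member or are its antisense gene. ETV5-AS1, antisense to ETV5, and ENSG00000232693, on the strand of SPRED2, share no exon bases with them and had at most 1 count in each sample. MAPK3, HRAS, SPRY3, NF1, EGFR, ERBB2, ERBB3, ETV1, CIC and the cell type markers lie outside this rule and were named for their roles or after their values were seen. Groups of 3 were not searched for outlying samples.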

Additional observations from a re-analysis of the deposited data

How the results depend on the processing

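SPRY4 was called lower under each of the 17 alternatives, with adjusted p between 2.17e-17 and 0.00284. Without a filter on low counts, 330 genes were called in place of 125, 2 members lower and 1 higher, with SPRY1 (-0.50) and ERRFI1 (0.32) past the threshold. The likelihood ratio test called 267 genes and 3 members lower, with SPRY1 (-0.49) and PHLDA1 (-0.41) added. With the replicate block, 378 genes, 2 members lower and 1 higher were called, with PHLDA1 (-0.41) and ERRFI1 (0.32) added. The numbers are not known to pair the samples, and whether they do was not tested. Deviations of same-numbered samples correlated at 0.053, 0.12 and 0.21, and those of differently numbered samples at between -0.25 and 0.17. After removal of trends by GC content and length, 232 genes and 1 member higher (ERRFI1, 0.35) were called, and with the replicate block as well 475 genes, 3 members lower, 1 higher and 2 ETS genes, with SPRY1 (-0.50), PHLDA1 (-0.38) and ERRFI1 (0.34). The cause was not tested. Of the fits that left out 1 sample, the one without DMSO replicate 3 called 168 genes and the one without AZD7762 replicate 1 called 77, with 0 or 1 member higher, and log2 fold changes of 0.24 to 0.42 for ERRFI1, 0.10 to 0.38 for SPRED3, -0.0071 to 0.16 for SPRED1 and -0.0016 to 0.079 for ETV5, the last 2 reversed without DMSO replicate 3. The SPRY4 to SPRY2 ratio changed sign, to -0.14, with 3 counts added and ranged from 0.025 to 0.87 without single samples. The difference in the SPRY1 to SPRY2 ratio was 0.32 with 3 counts added and 0.47 to 1.37 without single samples, and that of SPRED3 to SPRED1 ranged from -0.038 to 0.30, reversed without DMSO replicate 1. With the longest transcript, 5 of 10 genes kept their place by level. Scaling by library totals alone called 59 genes higher and 90 lower in place of 63 and 62, and the likelihood ratio test 106 and 161. SPRY2, at 1 to 9 counts in each sample, was below the filter.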
